A study of Mus musculus with 8 samples.

Results

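Wild-type large intestine was compared with wild-type small intestine in 129SV mice 3 days after birth, to map which genes differ between the segments of the normal suckling gut. The members are the 4 arrays whose titles name wild-type tissue, 2 of large and 2 of small intestine, out of 8 arrays in the series. The other 4 arrays are of claudin-7 knockout pups of the same strain and age, 2 of large and 2 of small intestine, and served here to estimate the spread and as a second pair of segments. RNA came from intestinal fragments of 2 cm that had been collected into a stabilising solution, with no treatment given. The labels do not say which stretch of either segment was taken, and they do not tie a large to a small intestine sample of the same pup. The titles number the samples 2 and 3 in each group, and these arrays are called large 2, large 3, small 2 and small 3 below.

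The small intestine digests and absorbs, and before weaning its enterocytes also take up milk proteins whole by endocytosis. The large intestine recovers salt and water and is covered by a thicker mucus layer from its goblet cells. Along the length of the gut, position is held by transcription factors such as GATA4 in the proximal small intestine, and by the Hox clusters, whose last genes mark the hindgut.

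Each 1-colour array read 59305 non-control spots, of which 66.71% to 72.14% were well above background on the wild-type arrays. A level below is the log2 of a probe's signal over the 75th percentile of its array, and a difference is large minus small intestine on that log2 scale, given with its standard error. "Passed" means an adjusted p under 0.05 (Benjamini-Hochberg) in limma over 19782 genes. The levels of the 2 large intestine arrays correlated across genes at 0.9914, and those of the 2 small intestine arrays at 0.9847. Precision is limited by having 2 arrays a group, the p-values measure only the spread between samples, and the median standard error of a difference was 0.275. Standard errors and p-values pool the spread of all 8 arrays, so a gene uneven between knockout arrays has a wide error in wild type too. All 8 arrays lay on 1 slide with each group in a column of its own, so slide column and group are confounded and cannot be told apart. Of 10 commonly used housekeeping genes 1 passed (10%, against 20.2% of all genes), B2m, which was lower in the large intestine. Actb, cytoplasmic actin, read 7.13 and 7.22 in large intestine and 7.26 and 7.11 in small intestine. The epithelial marker Epcam read 4.71 and 4.82 in large intestine, against 4.40 and 5.0 in small intestine. Cldn7 itself read 5.70 and 5.56 in large intestine, against 5.89 and 5.93 in small intestine, a difference of -0.28 ± 0.39 that did not pass (adjusted p = 0.636), and it read 0.94 to 2.21 on the 4 knockout arrays. Ddx3y, a Y-linked helicase gene, read 0.70 to 1.33 on the 4 wild-type arrays. Without large 2, B2m did not pass (limma adjusted p 0.188), the same without large 3 (0.181), the same without small 2 (0.177), and the same without small 3 (0.0941). Other settings ended the call of B2m with no filter on background (adjusted p 0.0732), and with outlier flags ignored (0.05).

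The segments differed at 3988 genes, 20.2% of those tested. Of these, 1992 were higher in the large intestine and 1996 lower, 10.1% of the tested genes in each direction. The size of the difference reached 2-fold for 1766 of the higher and 1708 of the lower genes, 8-fold for 286 and 403, and 64-fold for 62 and 75. A further measure counts genes read well above background on both arrays of one segment and on neither of the other, which were 198 among the higher and 136 among the lower genes. At an unadjusted p under 0.05 there were 7214 genes, 36.5%. The median difference over all genes was 0.00 on the log2 scale. Leaving out an array lowered the counts, to 490 higher and 419 lower genes without large 2, 470 and 492 without large 3, 1664 and 1090 without small 2, and 831 and 843 without small 3.

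**Figure D1:**
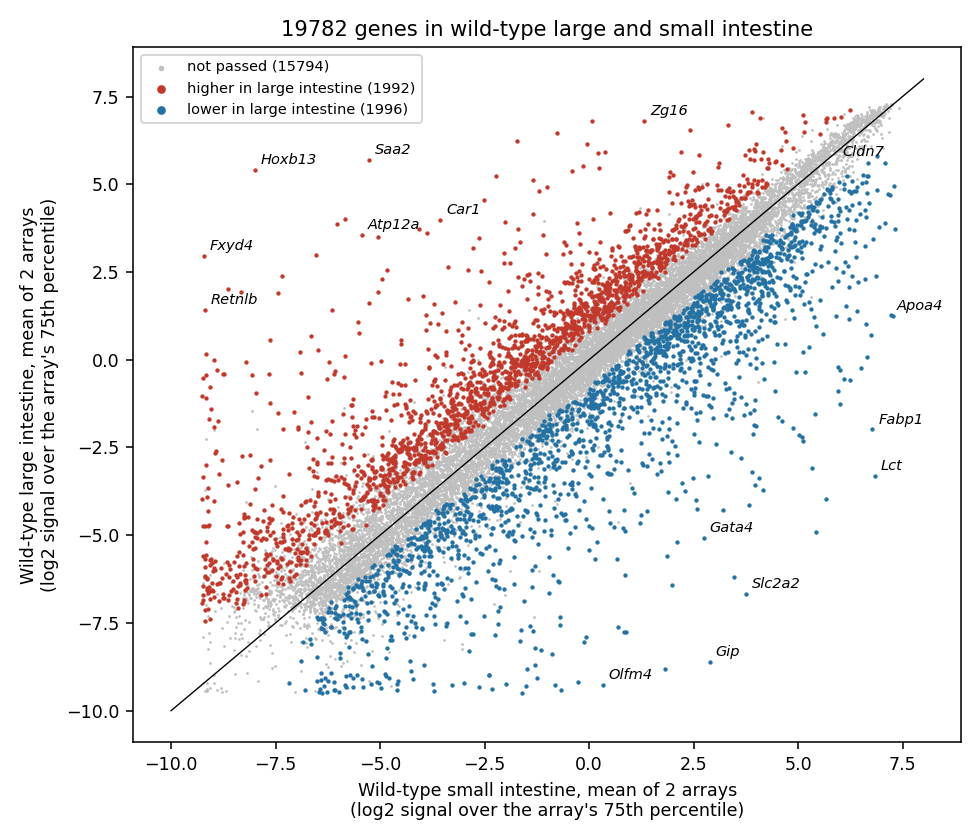
Each point is a gene, with its mean level on the 2 wild-type large intestine arrays on the y axis and on the 2 wild-type small intestine arrays on the x axis (log2 signal over the array's 75th percentile). Red genes were higher and blue genes lower in the large intestine (adjusted p under 0.05 in limma), grey genes did not pass, and the line marks equal levels. The 1992 red and 1996 blue points lie above and below the line.

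The gene with the largest fitted difference was Hoxb13, a hindgut homeobox gene (probe on chromosome 11 at 96057854 to 96057913, build mm9, plus strand). It read 5.50 and 5.31 in large intestine, against -7.14 and -8.86 in small intestine, where it was not well above background, so that it was at least 5045-fold higher in large intestine (adjusted p = 0.00052). For a probe in this state the bound sets the brighter segment's mean against the higher of the dim reading and the lowest signal read well above background on the array. Fxyd4, a regulator of the sodium pump (chromosome 6 at 117883603 to 117883662, minus strand), read 2.78 and 3.12 in large intestine, against -9.49 and -8.94 in small intestine, at least 1200-fold higher (adjusted p = 3.57e-05). Saa2, a serum amyloid A protein (chromosome 7 at 54009622 to 54009681, plus strand), read 5.76 and 5.62 in large intestine, against -4.76 and -5.77 in small intestine, 1980-fold higher (adjusted p = 7.15e-05). For each of these 3 genes both large intestine arrays lay above both small intestine arrays. The genes were picked for the size of their difference, so this adds no support. Among the next in size were Hoxa11 (at least 630-fold), Vsig1 (at least 577-fold), an immunoglobulin-family protein known from stomach epithelium, Wfdc18 (at least 504-fold), and Retnlb (at least 417-fold), the goblet cell protein RELMβ. Cyp2d34, a cytochrome P450, was 923-fold higher (adjusted p = 2.33e-05), and Atp12a, the proton and potassium pump of the colon, 506-fold (0.000371). Slc6a14, an amino acid transporter, read 3.11 and 2.84 in large intestine, against -9.24 and -3.82 in small intestine, so the small intestine arrays lay far apart (9.50 ± 2.15, adjusted p = 0.027). The other members of the 20 largest rises were Hoxd13, Hoxd12, Hoxa13, the antisense transcript Hoxa11os, the kidney and limb homeobox gene Six2, the proteases Tmprss13 and Klk15, the glycosyltransferases Fut9 and Abo and the long non-coding RNA Pantr1. Hoxa11os overlaps Hoxa11 in the genome, and its probe is of the opposite strand. Slc6a14 lost the call without large 2 (limma adjusted p 0.124), the same without large 3 (0.123), and the same without small 2 (0.0741).

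Among the largest falls was Gip, the incretin hormone of the upper gut's K cells (chromosome 11 at 95886745 to 95887966, plus strand). It read -8.87 and -8.34 in large intestine, not well above background, against 3.16 and 2.63 in small intestine, at least 1133-fold lower (adjusted p = 7.09e-05). Lct, the lactase that splits milk sugar (chromosome 1 at 130181389 to 130181448, minus strand), read -3.27 and -3.35 in large intestine, against 7.08 and 6.61 in small intestine, 1138-fold lower (adjusted p = 0.000389). Olfm4, a secreted glycoprotein of crypt base cells, read -9.27 on both large intestine arrays, against 0.18 and 0.47 in small intestine, at least 191-fold lower (adjusted p = 2.33e-05). Slc2a2, the basolateral glucose and fructose transporter GLUT2, was 1383-fold lower (adjusted p = 0.0171), Fabp1, the liver-type fatty acid binding protein, 433-fold lower (0.0146), and G6pc, glucose-6-phosphatase, 254-fold lower (0.00248). Further secreted proteins among the 20 largest falls were Cfi, complement factor I (at least 538-fold, adjusted p = 0.0249), the chemotactic protein Lect2 (-10.34 ± 2.00, 0.0168), and the antimicrobial peptide Leap2 (-9.65 ± 1.53, 0.00866). Others among them were Paqr9, Clec4f, Gimd1, Acot12, Olah, Cyp3a25, Cyp3a57, Dnah2, Ugt2a3 and the α-defensin gene Defa5. Slc2a2, Fabp1, Cfi, Lect2, Leap2, Paqr9, Clec4f, Cyp3a25 and Cyp3a57 did not pass without large 2 (limma adjusted p 0.0575 to 0.125), the same genes without large 3 (0.0558 to 0.107), Slc2a2, Cfi and Cyp3a25 without small 2 (0.0507 to 0.0726), and Slc2a2, Fabp1, Cfi, Lect2, Cyp3a25 and Cyp3a57 without small 3 (0.0567 to 0.0815).

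**Figure D2:**
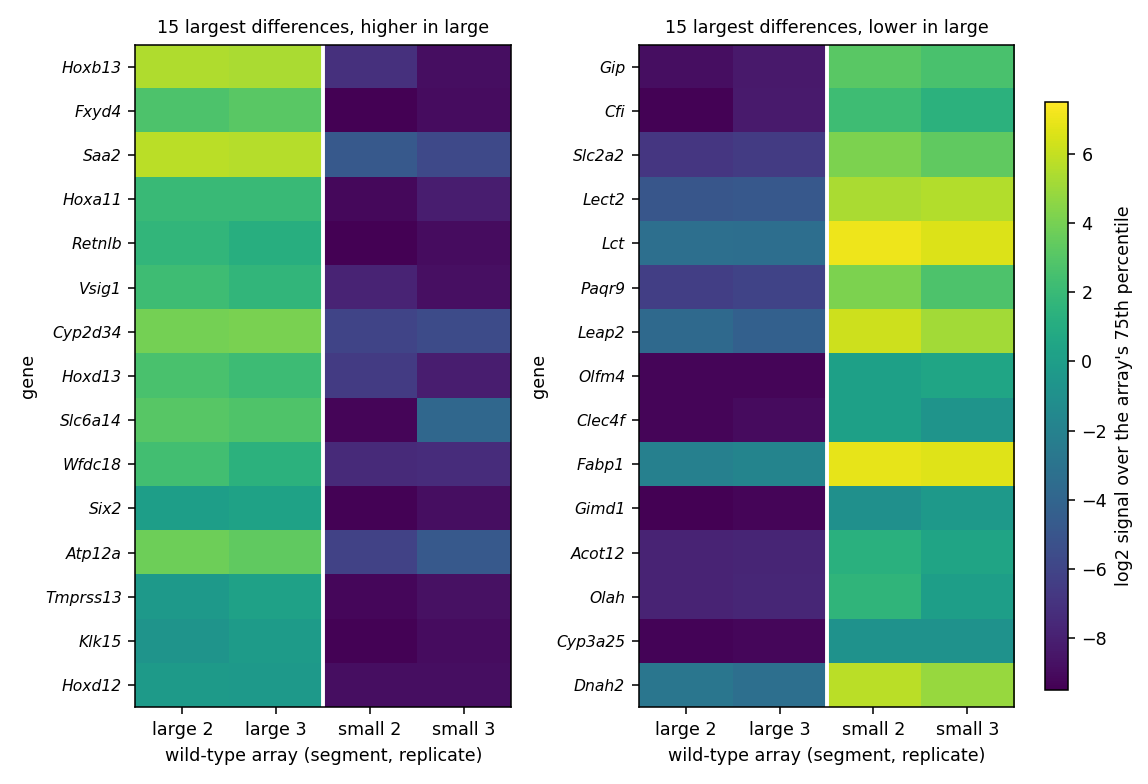
Levels of the 15 named genes with the largest positive and the 15 with the largest negative difference, one row per gene and one column per wild-type array, large intestine left of small intestine (colour: log2 signal over the array's 75th percentile). The 2 arrays of a segment share their colour in most rows, and Slc6a14 differs between small 2 (-9.24) and small 3 (-3.82).

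Transcription factors that pattern the gut differed in both directions. Of 25 measured members of that list 5 were higher and 9 lower (56% passed, against 20.2% of all genes), with a median difference of -1.17. Gata4, which sets the identity of the proximal small intestine, read -5.32 and -4.84 in large intestine, against 2.92 and 2.58 in small intestine (-7.82 ± 0.39, 226-fold lower, adjusted p = 0.000147). Its relative Gata6 read 1.76 and 1.68 in large intestine, against 4.02 and 4.10 in small intestine (-2.34 ± 0.34, adjusted p = 0.00665), and Gata5 differed by -1.15 ± 0.27 (0.0315). Creb3l3, a membrane-bound factor that controls lipoprotein genes, read 1.92 and 2.53 in large intestine and 6.44 on both small intestine arrays (adjusted p = 0.00144). Prdm1, the repressor BLIMP1 that holds the suckling state of the intestinal epithelium, differed by -2.69 ± 0.47 (adjusted p = 0.0118), Hnf4g, a nuclear receptor of enterocytes, by -3.23 ± 0.78 (0.0331), and Isx, a homeobox repressor of vitamin A uptake, by -1.87 ± 0.46 (0.0351). Tbx3 fell by 1.59 ± 0.23 (adjusted p = 0.00645). Pdx1, a duodenal and pancreatic factor, was not well above background on either large intestine array and read -4.58 and -6.73 in small intestine, with only the first of these well above background (adjusted p = 0.0153). Higher in the large intestine were the forkhead factors Foxa2 (3.91 ± 0.27, 0.000474), Foxa1 (2.38 ± 0.45, 0.0157) and Foxa3 (1.73 ± 0.23, 0.0052). Sox2, a foregut factor, passed at a low level (2.73 ± 0.47, adjusted p = 0.0119). The pan-intestinal factor Cdx2 read 2.32 and 2.30 in large intestine, against 3.17 and 3.77 in small intestine (-1.17 ± 0.36, adjusted p = 0.0631), and Cdx1 5.90 and 5.84 in large intestine, against 5.29 and 5.36 in small intestine (0.55 ± 0.25, 0.161), neither of which passed. Onecut2 did not pass, with small intestine arrays at 3.14 and -1.19. Without large 2, Gata6, Gata5, Prdm1, Hnf4g, Isx, Pdx1, Foxa1, Foxa3 and Sox2 did not pass (limma adjusted p 0.0509 to 0.121), Gata6, Gata5, Prdm1, Hnf4g, Isx, Tbx3, Pdx1, Foxa1 and Sox2 without large 3 (0.0553 to 0.175), Gata5, Hnf4g, Isx and Foxa1 without small 2 (0.0503 to 0.109), and Gata5, Prdm1, Hnf4g and Isx without small 3 (0.0553 to 0.151). Calls also ended under other settings, for Isx with no filter on background (adjusted p 0.0516), Pdx1 with normexp background correction (0.104), Isx with the replicate number as a block (0.0506), and Pdx1 in the deposited table (0.0638).

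Hox genes separated by position in the cluster. Of 14 measured genes of paralogue groups 9 to 13, 12 were higher in the large intestine (all genes, 10.1% higher). Their median fitted difference was 7.01 in the chosen processing and 4.16 with normexp background correction. The 3 of them well above background on all 8 arrays had a median of 3.57. Of 21 measured genes of groups 1 to 8 there were 3 higher and 4 lower, with a median of 0.37, and 0.13 without small 3. In these groups 33.3% passed, against 20.2% of all genes. Hoxd13 read 2.63 and 2.13 in large intestine, against -6.54 and -8.15 in small intestine, where 1 of the 2 readings was well above background (adjusted p = 0.000205). Hoxa13 (at least 76.0-fold), Hoxd12 (at least 128-fold), Hoxa10 (at least 229-fold), Hoxd10 (at least 73.2-fold) and Hoxd11 (at least 40.1-fold) were not well above background in small intestine. Hoxa9, Hoxb9 and Hoxd9 were read well above background in both segments, Hoxa9 at -1.15 and -0.79 in large intestine, against -4.66 and -4.43 in small intestine (3.57 ± 0.22, adjusted p = 0.000309), and Hoxb9 with a difference of 4.41 ± 0.36 (0.000963) and Hoxd9 with 3.06 ± 0.51 (0.0106). Hoxc11 was at least 2.67-fold higher (adjusted p = 0.00733), and Hoxc9 and Hoxc10 did not pass, with Hoxc9 at -8.95 and -2.27 on the small intestine arrays. In the anterior groups the HoxC genes ran the other way. Hoxc6 read -4.47 and -4.13 in large intestine, against 1.62 and 1.17 in small intestine (-5.69 ± 0.24, 51.7-fold lower, adjusted p = 8.16e-05). Hoxc5 differed by -3.69 ± 0.46 (adjusted p = 0.00379), and Hoxc4 by -2.05 ± 0.40 (0.0171), and Hoxc8 was at least 2.88-fold lower (0.046). Those higher in the large intestine were Hoxa7 (2.46 ± 0.46, adjusted p = 0.0146), Hoxd3 (1.79 ± 0.36, 0.0186) and Hoxb5 (1.47 ± 0.40, 0.046). Hoxc4, Hoxc8, Hoxa7, Hoxd3 and Hoxb5 lost the call without large 2 (limma adjusted p 0.0721 to 0.172), Hoxd9, Hoxc11, Hoxc4, Hoxc8, Hoxa7, Hoxd3 and Hoxb5 without large 3 (0.0506 to 0.198), Hoxa7 without small 2 (0.0523), and Hoxd9, Hoxc8, Hoxd3 and Hoxb5 without small 3 (0.0516 to 0.195). Beyond left-out arrays, the call ended for Hoxb5 and Hoxc8 with no filter on background (adjusted p 0.0653 to 0.0673), Hoxc8 with normexp background correction (0.157), with quantile scaling (0.0551), Hoxb5 with the replicate number as a block (0.0558), in the 4 wild-type arrays alone (0.07), and Hoxc8 in the deposited table (0.18).

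**Figure D3:**
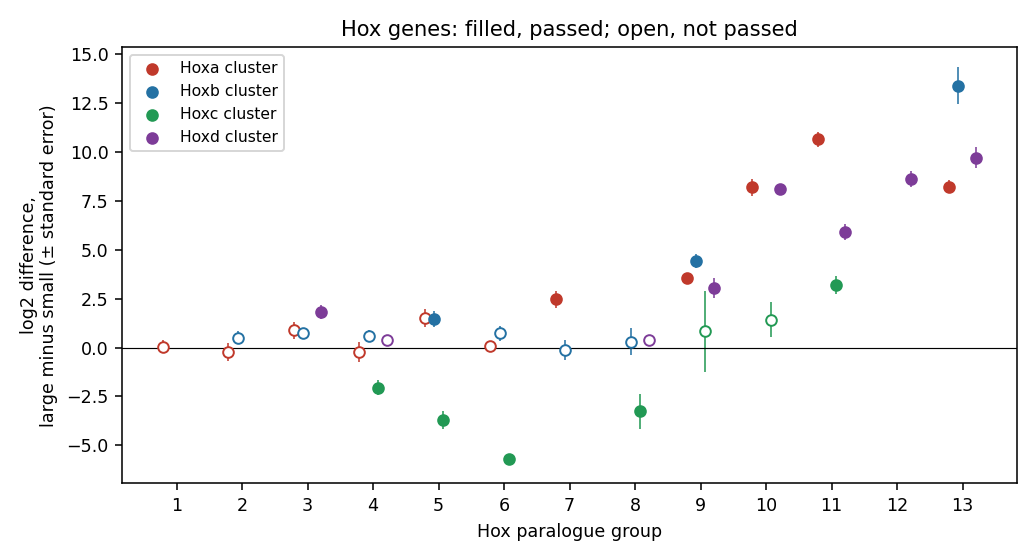
Difference between wild-type large and small intestine (log2, large minus small, ± standard error, 2 arrays a segment) for each measured Hox gene against its paralogue group, coloured by cluster. Filled points passed and open points did not. In groups 1 to 8 they run between -5.69 (Hoxc6) and 2.46 (Hoxa7), with the 4 passed HoxC genes below 0, and from group 9 on the passed genes lie above 0. The height of a point whose dim segment was at background is a fitted value and no exact size.

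Digestive enzymes and sugar transporters of the brush border were lower in the large intestine, at 16 of 23 measured members (all genes, 10.1% lower), with a median of -2.43. Beside Lct, the lower members included the peptidase Ace, the phosphatases Alpi and Akp3, and the trehalose-splitting Treh. Ace, angiotensin-converting enzyme, read -1.61 and -1.27 in large intestine, against 4.29 and 3.60 in small intestine (-5.38 ± 0.45, adjusted p = 0.00101). Alpi, intestinal alkaline phosphatase, read 2.62 and 2.93 in large intestine, against 6.23 and 6.01 in small intestine (-3.34 ± 0.29, adjusted p = 0.00114). Both were still read well above background in the large intestine. Treh differed by -3.57 ± 0.47 (adjusted p = 0.00446), and Akp3 was at least 7.36-fold lower. The glucose transporter Slc5a1 (SGLT1) read -0.52 and -0.70 in large intestine, against 2.50 and 2.57 in small intestine (-3.14 ± 0.49, adjusted p = 0.0081), and the fructose transporter Slc2a5 differed by -4.98 ± 0.79 (0.0089). Sis, the sucrase and isomaltase that appears at weaning, read -1.11 and 0.29 in large intestine, against -0.90 and -0.75 in small intestine, and did not pass (adjusted p = 0.801). Of 16 amino acid and peptide transporters 8 were lower and 2 higher (62.5% passed, against 20.2% of all genes), with a median of -0.75. Slc6a19, the neutral amino acid transporter B0AT1, read -1.28 and -1.76 in large intestine, against 3.87 and 3.82 in small intestine (-5.36 ± 0.39, adjusted p = 0.000603), and the proline transporter Slc6a20a differed by -3.54 ± 0.41 (0.00298). The higher ones were Slc6a14, above, and Slc43a1 (0.84 ± 0.20, adjusted p = 0.0316). Slc5a1, Slc2a5, Slc6a14 and Slc43a1 did not pass without large 2 (limma adjusted p 0.0564 to 0.145), the same genes without large 3 (0.0552 to 0.152), Slc6a14 and Slc43a1 without small 2 (0.0741 to 0.0815), and Slc43a1 without small 3 (0.145). Calls that did not hold under other settings were those of Slc43a1 with no filter on background (adjusted p 0.0522).

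Genes of fat absorption had the lowest median of the lists, -4.19, and 19 of 20 members passed, each of them lower in the large intestine (all genes, 10.1% lower). Apoa4, an apolipoprotein of chylomicrons, read 1.24 and 1.29 in large intestine, against 7.37 and 7.08 in small intestine (-5.96 ± 0.27, 62.3-fold lower, adjusted p = 0.000101). Apob, the structural apolipoprotein, read -1.68 and -2.22 in large intestine, against 4.97 and 4.81 in small intestine (-6.84 ± 0.32, adjusted p = 0.000114). Mttp, which loads lipid onto apolipoprotein B, differed by -5.06 ± 0.46 (adjusted p = 0.00136), Apoc3 by -6.04 ± 0.25 (7.65e-05) and Apoa1 by -5.62 ± 0.38 (0.000468). Npc1l1, the cholesterol uptake protein, read -2.94 and -2.67 in large intestine, against 3.78 and 3.47 in small intestine (-6.43 ± 0.59, adjusted p = 0.00145). The triglyceride-making Mogat2 (-4.30 ± 0.55, adjusted p = 0.00417) and Dgat1 (-3.66 ± 0.44, 0.00342) were lower as well. The bile acid list was split: of 6 members 3 were lower and 1 higher (66.7% passed, against 20.2% of all genes). Fgf15, the enterokine that signals bile acid uptake to the liver, read -3.97 and -3.36 in large intestine, against 0.59 and 1.47 in small intestine (-4.70 ± 0.56, adjusted p = 0.00327). Slc10a2, the apical bile acid transporter known from the ileum, ran the other way, at -0.55 and -0.42 in large intestine, against -5.96 and -5.76 in small intestine (5.37 ± 0.60, 41.5-fold higher, adjusted p = 0.00267). The ileal bile acid binding protein gene Fabp6 read -1.40 and -1.73 in large intestine, against -5.81 and 1.72 in small intestine, so the small intestine arrays stood on both sides of the large intestine ones and it did not pass (adjusted p = 0.931). Pdx1, above, and the hormone gene Pyy, below, are among the genes on which small 2 and small 3 also lay apart.

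Promoter sequences (RefSeq, GRCm38.p6, 250 bases before to 50 after the start) were on hand for 14237 of the 19782 genes, for 1408 of the higher and for 1473 of the lower ones. The motif CAAAGTCCA, a form of the HNF4 site, was searched on both strands and occurred in 1.22% of the promoters of lower genes (18), in 0.213% of those of higher genes (3) and in 0.464% of all (66). Among genes that differed by at least 8-fold it occurred in 2.71% of the lower and 0.515% of the higher. AGATAAG, a form bound by GATA factors, occurred in 3.33% of promoters of lower genes, in 1.99% of those of higher genes and in 2.28% of all, and at 8-fold in 3.39% of the lower and 3.61% of the higher. A form of the HNF1 site occurred in 0.611%, 0.568% and 0.365% of the same sets, and TTTATGG, a CDX form, in 2.38%, 2.20% and 1.98%. TATAAA occurred in 12.4% of promoters of lower genes, 11.8% of those of higher genes and 10.1% of all. Promoters with at most 3 CpG pairs made up 22.4% of the lower, 16.2% of the higher and 14.5% of all, and among genes that differed by at least 8-fold 34.6% of the lower and 36.6% of the higher. A match is a string of letters in the window and no measured binding site. The promoters of 4 lower genes are shown as examples of such matches, each 5′ to 3′ on the gene's strand with the match in capitals: the HNF4 form at the enterocyte genes Alpi (chr1:87101557-87101856, minus strand) and Treh (chr9:44672983-44673282), the HNF1 form at Npc1l1 (chr11:6230196-6230495) and the GATA form at Gip (chr11:96024295-96024594).
Alpi: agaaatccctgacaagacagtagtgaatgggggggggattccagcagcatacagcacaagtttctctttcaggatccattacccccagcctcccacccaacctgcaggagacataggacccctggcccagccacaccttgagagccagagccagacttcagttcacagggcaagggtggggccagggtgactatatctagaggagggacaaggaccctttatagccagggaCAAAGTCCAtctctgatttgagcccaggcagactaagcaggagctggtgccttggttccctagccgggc
Treh: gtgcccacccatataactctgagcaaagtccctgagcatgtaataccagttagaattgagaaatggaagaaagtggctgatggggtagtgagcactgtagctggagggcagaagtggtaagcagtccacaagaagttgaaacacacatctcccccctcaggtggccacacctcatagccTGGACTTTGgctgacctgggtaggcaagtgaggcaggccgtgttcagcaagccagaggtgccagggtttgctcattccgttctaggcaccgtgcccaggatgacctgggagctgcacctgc
Npc1l1: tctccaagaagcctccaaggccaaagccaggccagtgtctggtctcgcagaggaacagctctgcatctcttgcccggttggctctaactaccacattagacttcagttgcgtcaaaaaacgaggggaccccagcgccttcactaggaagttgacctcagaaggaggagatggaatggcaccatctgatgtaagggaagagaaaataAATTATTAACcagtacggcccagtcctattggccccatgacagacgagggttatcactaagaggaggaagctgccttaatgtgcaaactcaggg
Gip: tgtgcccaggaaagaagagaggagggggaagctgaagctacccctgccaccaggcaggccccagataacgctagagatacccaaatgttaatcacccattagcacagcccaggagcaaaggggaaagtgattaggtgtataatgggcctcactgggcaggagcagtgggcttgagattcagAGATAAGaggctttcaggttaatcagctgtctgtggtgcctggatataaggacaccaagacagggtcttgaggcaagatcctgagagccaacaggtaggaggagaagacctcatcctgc

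Endocytosis and lysosomal breakdown are the route by which neonatal enterocytes digest milk protein inside the cell. Genes of this route were lower at 13 of 16 members (all genes, 10.1% lower), with a median of -2.36. Fcgrt, the neonatal Fc receptor that carries maternal antibodies, read 2.27 and 2.49 in large intestine, against 7.08 and 6.67 in small intestine (-4.49 ± 0.41, 22.5-fold lower, adjusted p = 0.00141). Mcoln3, a lysosomal channel, read -1.14 and -1.35 in large intestine, against 3.69 and 3.81 in small intestine (-5.0 ± 0.52, adjusted p = 0.00219). The receptor genes Lrp2 (megalin, -3.66 ± 0.54, adjusted p = 0.00718) and Cubn (cubilin, -2.25 ± 0.62, 0.0474), their anchor Amn (-2.93 ± 0.52, 0.0128) and Mamdc4 (endotubin, -2.42 ± 0.43, 0.0133) were lower, as were the lysosomal enzymes Lgmn (-2.25 ± 0.21, 0.00153), Ctsl (-2.36 ± 0.22, 0.00156) and Ctsz (-2.41 ± 0.32, 0.00461). Ctsl read 5.01 and 4.87 in large intestine, against 7.43 and 7.17 in small intestine. Pllp, plasmolipin, a membrane protein of endosomal sorting, was the member that was higher, at 3.1 and 3.05 in large intestine, against -0.80 and -0.12 in small intestine (3.54 ± 0.37, adjusted p = 0.00223). Without large 2, Cubn, Amn and Mamdc4 did not pass (limma adjusted p 0.0845 to 0.101), the same genes without large 3 (0.068 to 0.225), Cubn without small 2 (0.112), and Cubn, Amn and Mamdc4 without small 3 (0.0529 to 0.158). Other settings ended the call of Cubn with no filter on background (adjusted p 0.0676), and with the replicate number as a block (0.0698).

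**Figure D4:**
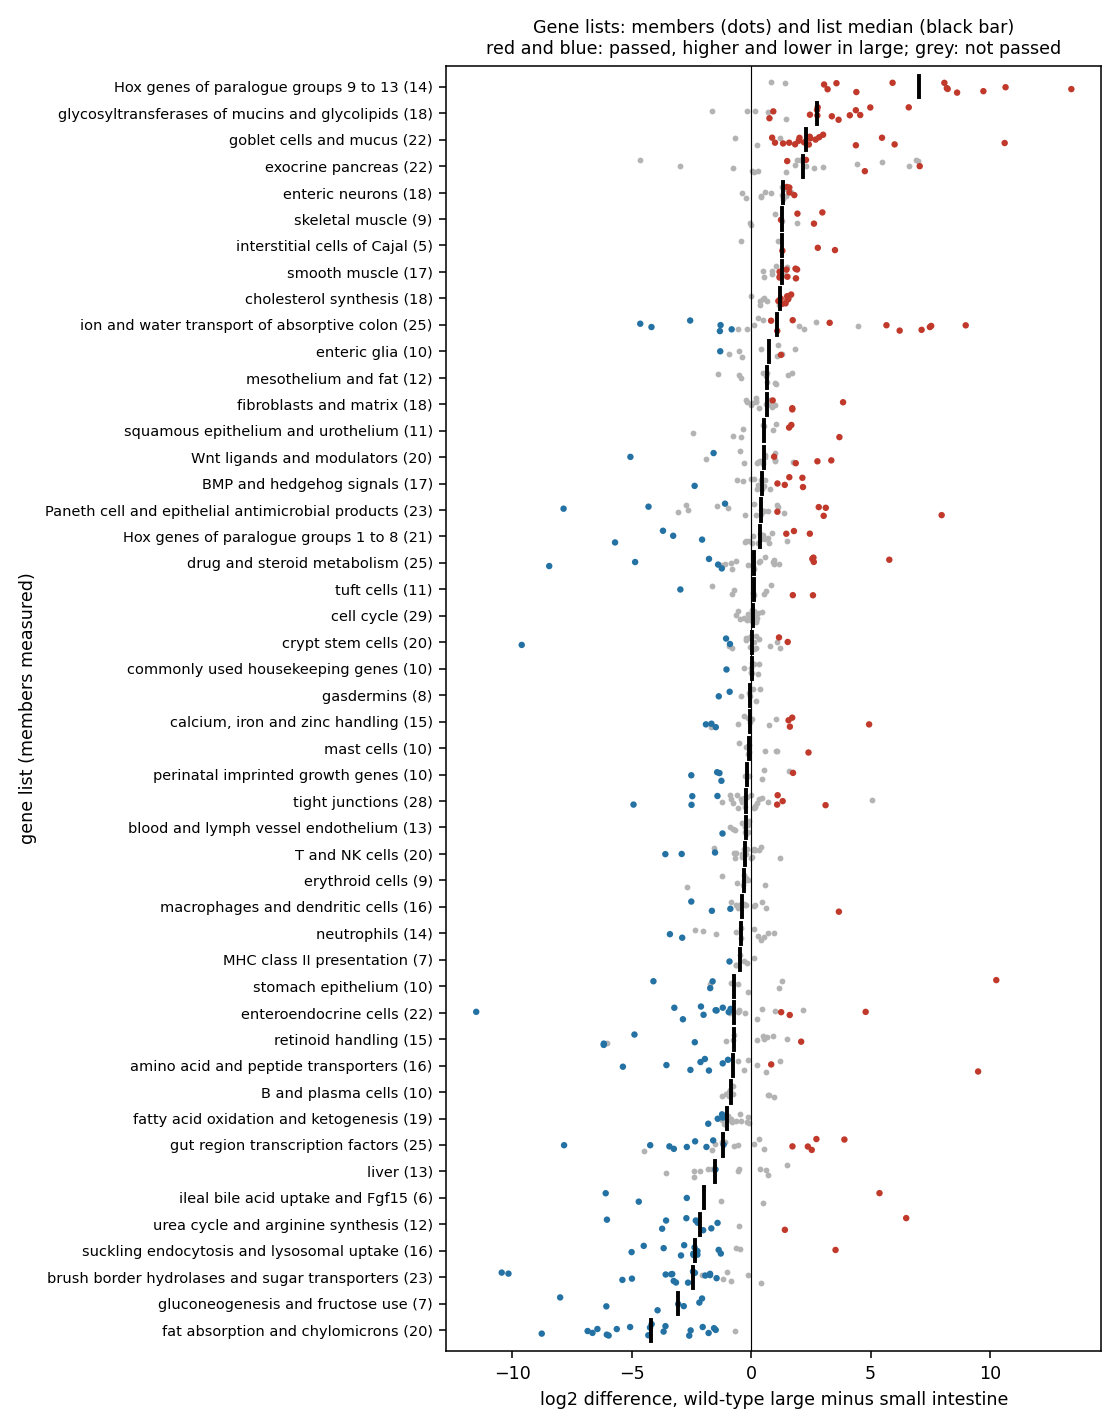
Differences between wild-type large and small intestine (log2, x axis) for the measured members of each gene list (y axis, number measured in brackets), ordered by the list median (black bar). Red members passed as higher and blue as lower in the large intestine, and grey ones did not pass. Medians run from -4.19 for fat absorption to 7.01 for Hox genes of groups 9 to 13 (4.16 with normexp background correction), with cell cycle genes packed near 0.

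The suckling small intestine makes arginine through genes of the urea cycle and arginine synthesis. Of 12 such genes 9 were lower and 2 higher (91.7% passed, against 20.2% of all genes), with a median of -2.12. Cps1, carbamoyl phosphate synthetase, read -1.94 and -2.30 in large intestine, against 3.68 and 4.15 in small intestine (-6.03 ± 0.40, 65.4-fold lower, adjusted p = 0.000441). Otc (-3.72 ± 0.47, adjusted p = 0.00411), Ass1 (-2.71 ± 0.36, 0.00467) and the proline and ornithine pathway gene Aldh18a1 (-3.56 ± 0.33, 0.00154) were lower with it. Arg2, the mitochondrial arginase that breaks arginine down, ran the other way, at -0.22 and -0.56 in large intestine, against -6.13 and -7.63 in small intestine (6.49 ± 0.52, adjusted p = 0.000887). The 7 genes of gluconeogenesis and fructose use all passed as lower (all genes, 10.1% lower), with a median of -3.05. Pck1, which commits carbon to glucose synthesis, read 2.22 and 2.55 in large intestine, against 6.35 and 6.25 in small intestine (-3.91 ± 0.25, adjusted p = 0.000371), and Fbp1 and Khk differed by -6.06 ± 1.25 (0.0206) and -2.16 ± 0.43 (0.0181). Fatty acid oxidation and ketogenesis had 4 of 19 members lower and 0 higher (21.1% passed, against 20.2% of all genes; median -0.99), among them Cpt1a, the mitochondrial entry step (-1.21 ± 0.23, adjusted p = 0.0164). Cholesterol synthesis had 8 of 18 members higher (all genes, 10.1% higher) and a median of 1.21 (0.75 without small 2). Sqle, squalene epoxidase, read 3.92 and 3.78 in large intestine, against 1.89 and 2.70 in small intestine (1.55 ± 0.31, adjusted p = 0.0181), and Lss (1.29 ± 0.30, 0.0289) and Fdps (1.14 ± 0.27, 0.031) were higher too. Fbp1, Khk, Cpt1a, Sqle, Lss and Fdps lost the call without large 2 (limma adjusted p 0.104 to 0.164), the same genes without large 3 (0.0634 to 0.104), Fbp1, Khk, Sqle, Lss and Fdps without small 2 (0.0529 to 0.109), and Fbp1, Khk and Cpt1a without small 3 (0.0506 to 0.0809). Calls also ended under other settings, for Fdps and Lss in the 4 wild-type arrays alone (adjusted p 0.0568 to 0.0589).

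Vitamin A and drug-handling genes were mixed. Of 15 retinoid genes 4 were lower and 1 higher (33.3% passed, against 20.2% of all genes), with a median of -0.72. Rbp2, the retinol binding protein of enterocytes, read -1.70 and -1.58 in large intestine, against 5.02 and 4.03 in small intestine (-6.17 ± 0.47, adjusted p = 0.00072), and Sdr16c5, a retinol dehydrogenase, was at least 57.0-fold lower (0.00248). Of 25 genes of drug and steroid metabolism 4 were higher and 5 lower (36% passed), with a median of 0.14. Cyp2c55, a cytochrome P450 known from mouse colon, read 1.26 and 2.36 in large intestine, against -4.14 and -3.81 in small intestine (5.78 ± 0.37, adjusted p = 0.000352). Abcc2, an export pump for conjugates, ran the other way, at -1.85 and -1.29 in large intestine, against 2.56 and 3.99 in small intestine (-4.85 ± 0.47, adjusted p = 0.00171). Maoa, monoamine oxidase A (2.56 ± 0.29, adjusted p = 0.0027), and Gstm1, a glutathione transferase (2.61 ± 0.31, 0.0033), were higher in the large intestine.

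Ion and water transport genes of the absorptive colon were higher at 10 and lower at 6 of 25 members, with a median of 1.10 (1.74 with the mean of a gene's probes). Of this list 64% passed, against 20.2% of all genes. Scnn1b, the β subunit of the epithelial sodium channel, read 0.29 and 0.18 in large intestine, against -7.25 and -6.55 in small intestine (7.14 ± 0.26, 141-fold higher, adjusted p = 6.59e-05). Car1, a carbonic anhydrase of colonocytes, read 3.57 and 4.38 in large intestine, against -3.68 and -3.44 in small intestine (7.54 ± 0.40, adjusted p = 0.00017), and Car2 6.10 and 6.22 in large intestine, against 0.28 and -0.39 in small intestine (6.22 ± 0.26, 8.16e-05). The segments did not overlap for any of these 3 genes, which adds no support, since they were picked for a small p. Best2, a bicarbonate channel of colonic goblet cells (7.48 ± 0.40, adjusted p = 0.000172), Hsd11b2, which protects the mineralocorticoid receptor from glucocorticoid (5.67 ± 0.61, 0.00245), the receptor gene Nr3c2 itself (1.10 ± 0.25, 0.0279) and the sodium and proton exchanger Slc9a2 (3.29 ± 0.50, 0.00778) were higher. Scnn1a, the α subunit, read 3.08 and 2.91 in large intestine, against 3.47 and 3.62 in small intestine (adjusted p = 0.472), and Scnn1g, the γ subunit, -1.06 and -1.69 in large intestine, against -3.68 and -8.03 in small intestine (0.0922), and neither passed. The water channel Aqp8 read 6.85 and 6.93 in large intestine, against 5.32 and 3.01 in small intestine, without passing (2.72 ± 1.11, adjusted p = 0.129). Slc26a3, the chloride and bicarbonate exchanger named for adenoma of the colon, was lower in the large intestine at this age, at -1.15 and -0.48, against 3.43 and 3.28 in small intestine (-4.17 ± 0.85, adjusted p = 0.0199). The phosphate transporter Slc34a2 (-4.64 ± 0.65, 0.00589) and the exchanger Slc9a3 (-2.55 ± 0.63, 0.0352) were also lower. Car4 is left without a direction, because its 2 kept probes differed in sign. Trpv6, the apical calcium channel, read 0.04 and -0.09 in large intestine, against -4.52 and -5.41 in small intestine (4.94 ± 0.32, adjusted p = 0.000391), and Vdr, the vitamin D receptor, differed by 1.63 ± 0.31 (0.0159). Of 15 genes for calcium, iron and zinc 4 were higher and 3 lower (46.7% passed), with the zinc importer Slc39a4 (-1.48 ± 0.27, 0.0146) and the duodenal ferric reductase Cybrd1 (-1.89 ± 0.43, 0.0273) among the lower. Nr3c2, Slc9a2, Slc26a3, Slc9a3, Vdr, Slc39a4 and Cybrd1 did not pass without large 2 (limma adjusted p 0.0547 to 0.149), Slc9a2, Slc26a3, Slc9a3, Vdr, Slc39a4 and Cybrd1 without large 3 (0.0605 to 0.144), Nr3c2, Slc26a3, Slc9a3, Vdr, Slc39a4 and Cybrd1 without small 2 (0.0549 to 0.105), and Nr3c2, Slc26a3 and Slc39a4 without small 3 (0.0547 to 0.128). Beyond left-out arrays, the call ended for Slc9a3 with no filter on background (adjusted p 0.051), and Nr3c2 in the 4 wild-type arrays alone (0.0553).

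Goblet cell genes were higher in the large intestine at 19 of 22 members (all genes, 10.1% higher), with a median of 2.30. In whole tissue, fewer cells of a type and less RNA per cell cannot be told apart, and this holds for each cell type list here. Muc2, the gel-forming mucin, read 5.10 and 4.45 in large intestine, against 1.75 and 2.10 in small intestine (2.85 ± 0.35, 7.21-fold higher, adjusted p = 0.00376). Zg16, a lectin-like protein that keeps bacteria from the epithelium, read 6.71 and 6.90 in large intestine, against 1.66 and 0.99 in small intestine (5.48 ± 0.26, adjusted p = 0.000115). Klk1, tissue kallikrein, differed by 6.01 ± 0.33 (adjusted p = 0.000205), and Muc1 by 4.39 ± 0.32 (0.000658). Regulators of secretory fate and of mucus production were higher by less, Atoh1 by 2.39 ± 0.34 (adjusted p = 0.00591), Spdef by 2.48 ± 0.38 (0.00777), Creb3l1 by 2.46 ± 0.40 (0.00979) and Creb3l4 by 2.42 ± 0.19 (0.000818). Spink4, a secreted protease inhibitor, read 6.72 and 6.82 in large intestine, against 4.82 and 5.54 in small intestine (1.60 ± 0.27, adjusted p = 0.0103). Muc13, a transmembrane mucin, read 6.46 and 6.54 in large intestine, against 7.19 and 7.14 in small intestine, and did not pass (0.201). Enzymes that build mucin and glycolipid sugars were higher at 13 of 18 members (all genes, 10.1% higher), with a median of 2.77. B3gnt6, the core 3 synthase of colonic mucin, read 0.75 and 1.40 in large intestine, against -6.35 and -4.70 in small intestine (6.60 ± 0.59, adjusted p = 0.00136). B3galt5 (4.99 ± 0.26, adjusted p = 0.000172), the sialyltransferases St6galnac6 (4.13 ± 0.24, 0.000235) and St6gal1 (2.76 ± 0.24, 0.00127), the sulfotransferase Chst4 (2.79 ± 0.29, 0.00218) and the fucosyltransferase Fut2 (3.38 ± 0.59, 0.012) were higher as well. Without large 2, Atoh1, Spdef, Creb3l1, Spink4 and Fut2 did not pass (limma adjusted p 0.0522 to 0.0759), and Spdef, Creb3l1, Spink4 and Fut2 without large 3 (0.0551 to 0.0768).

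Antimicrobial genes went both ways, with 5 of 23 list members higher and 3 lower (median 0.40). Of this list 34.8% passed, against 20.2% of all genes. Beside Saa2 above, Saa1 read 6.30 and 6.19 in large intestine, against -1.76 and -1.70 in small intestine (7.97 ± 0.47, 252-fold higher, adjusted p = 0.000244). Saa1 and Saa2 lie next to each other on chromosome 7, and their promoters are alike: 99 of the last 100 bases of the 2 windows matched in place and the longest shared run was 65 bases. With coding sequences also known to be close, each probe may read both transcripts. Both promoters (RefSeq, GRCm38.p6) are shown because the 2 genes moved together, with the longest shared run in capitals, Saa1 at chr7:46742931-46743230 on the minus strand and Saa2 at chr7:46751583-46751882 on the plus strand.
Saa1: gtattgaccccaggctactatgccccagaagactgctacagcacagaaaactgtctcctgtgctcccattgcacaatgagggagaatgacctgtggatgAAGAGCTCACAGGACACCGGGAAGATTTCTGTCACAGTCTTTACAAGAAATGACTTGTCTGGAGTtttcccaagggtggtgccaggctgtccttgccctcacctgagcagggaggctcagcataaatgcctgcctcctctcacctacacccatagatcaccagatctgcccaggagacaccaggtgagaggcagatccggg
Saa2: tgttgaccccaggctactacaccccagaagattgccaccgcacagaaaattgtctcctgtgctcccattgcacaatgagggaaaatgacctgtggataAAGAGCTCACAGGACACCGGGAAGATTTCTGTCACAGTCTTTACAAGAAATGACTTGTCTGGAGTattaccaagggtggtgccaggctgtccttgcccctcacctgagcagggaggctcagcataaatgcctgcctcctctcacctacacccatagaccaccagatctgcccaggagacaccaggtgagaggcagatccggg
Saa3, another family member, read 0.32 and -0.69 in large intestine, against -3.42 and -3.21 in small intestine (3.13 ± 0.88, adjusted p = 0.0491). The reactive oxygen enzyme genes Duox2 (at least 3.91-fold, adjusted p = 0.0331) and Duoxa2 (3.04 ± 0.65, 0.0234) and the bacterial-binding Lypd8 (1.10 ± 0.27, 0.0326) were higher. Lcn2, the siderophore-binding lipocalin, was lower, at -3.26 and -2.75 in large intestine, against 1.66 and 0.92 in small intestine (-4.29 ± 0.45, adjusted p = 0.00221). The α-defensin genes of Paneth cells, which are few at this age, were lower at 16 of 20 measured (all genes, 10.1% lower), with a median of -6.91. They were grouped by their name's stem after the values were seen, so this share is no test. Defa5 read -2.91 and -4.52 in large intestine, against 3.80 and 4.51 in small intestine (-7.87 ± 0.66, adjusted p = 0.00101). The α-defensin genes are near-identical copies, so their probes may read one another and do not count as separate findings. Lyz1, the Paneth cell lysozyme, read 1.77 and 1.26 in large intestine, against 2.48 and 2.47 in small intestine, and did not pass (0.0504), nor did Reg3g (-2.73 ± 0.98, 0.0946). Saa3, Duox2, Duoxa2 and Lypd8 lost the call without large 2 (limma adjusted p 0.118 to 0.213), the same genes without large 3 (0.104 to 0.154), the same genes without small 2 (0.0793 to 0.129), and Saa3, Duox2 and Duoxa2 without small 3 (0.0512 to 0.144). Calls that did not hold under other settings were those of Lypd8 and Saa3 with no filter on background (adjusted p 0.0506 to 0.0692), Duox2 with normexp background correction (0.136), Saa3 with outlier flags ignored (0.05), with the replicate number as a block (0.0526), and Duox2 in the deposited table (0.0649).

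Enteroendocrine genes were lower at 10 and higher at 3 of 22 members (59.1% passed, against 20.2% of all genes), with a median of -0.71. Cck, cholecystokinin, read 1.78 and 1.90 in large intestine, against 5.50 and 4.61 in small intestine (-3.21 ± 0.42, adjusted p = 0.0044). Ghrl, ghrelin (-2.85 ± 0.44, adjusted p = 0.0081), Sst, somatostatin (-1.99 ± 0.39, 0.0169), and Nts, neurotensin (-2.10 ± 0.48, 0.028), were lower as well, beside Gip above. Insl5, a hormone of colonic L cells, was higher, at 2.80 and 2.70 in large intestine, against 0.17 and -4.25 in small intestine (4.80 ± 1.25, adjusted p = 0.0407). Pyy, peptide YY, read 3.92 and 3.84 in large intestine, against 0.65 and 2.76 in small intestine, without passing (0.06), and Gcg, which encodes GLP-1, 2.63 and 3.00 in large intestine, against 1.43 and 3.29 in small intestine (0.651). Chga, the granule protein chromogranin A shared by these cells, differed by -1.48 ± 0.18 (adjusted p = 0.00327), and Tph1, which makes serotonin, by -1.18 ± 0.20 (0.0116). Of 11 tuft cell genes 3 passed (27.3%, against 20.2% of all genes). Trpm5 (2.59 ± 0.39, adjusted p = 0.00767) and Dclk1 (1.75 ± 0.30, 0.012) were higher and the prostaglandin synthase Hpgds lower (-2.96 ± 0.51, 0.0118), while Pou2f3, the factor that specifies tuft cells, read -6.90 and -7.31 in large intestine, against -6.25 and -6.39 in small intestine, and did not pass (0.141). Ghrl, Sst, Nts, Insl5, Tph1, Dclk1 and Hpgds did not pass without large 2 (limma adjusted p 0.0588 to 0.157), Ghrl, Nts, Insl5, Tph1, Trpm5, Dclk1 and Hpgds without large 3 (0.0606 to 0.161), Sst without small 2 (0.058), and Sst, Nts, Dclk1 and Hpgds without small 3 (0.0573 to 0.0934). Other settings ended the call of Insl5 with no filter on background (adjusted p 0.0581), and in the 4 wild-type arrays alone (0.0864).

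Of 20 crypt stem cell genes 3 were lower and 2 higher (25%, against 20.2% of all genes), with a median of 0.05. Lgr5, the receptor that marks crypt base stem cells, read 0.47 and 0.15 in large intestine, against 0.94 and 1.51 in small intestine, and did not pass (-0.91 ± 0.27, adjusted p = 0.0554). Lrig1 (1.17 ± 0.25, adjusted p = 0.0229) and Prom1 (1.53 ± 0.36, 0.0308) were higher, and Ephb2 (-1.05 ± 0.26, 0.0351) and Ephb3 (-0.88 ± 0.24, 0.0438) lower. Of 29 cell cycle genes 0 passed in limma, 1 had an unadjusted p under 0.05, and the median was 0.08. Mki67 read 4.21 and 3.63 in large intestine, against 4.09 and 3.65 in small intestine, so the segments overlapped. Among 20 Wnt genes 4 were higher and 2 lower (30% passed). The median of the Wnt list was 0.54 in wild type and -1.04 on the knockout arrays. Wnt3, the ligand that Paneth cells provide to the crypt base, was at least 22.2-fold lower, at -8.01 and -7.65 in large intestine, against -2.98 and -2.57 in small intestine (adjusted p = 0.000125). The secreted inhibitors Sfrp2 (2.78 ± 0.34, adjusted p = 0.00366) and Frzb (1.87 ± 0.26, 0.00574) and the ligand Wnt6 (3.36 ± 0.55, 0.00993) were higher. Among 17 BMP and hedgehog genes 5 were higher and 1 lower (35.3% passed), with Bmp2 at 1.41 ± 0.21 (adjusted p = 0.00753) and Bmp7 at -2.36 ± 0.29 (0.00379). Without large 2, Lrig1, Prom1, Ephb2, Ephb3, Wnt6 and Bmp2 did not pass (limma adjusted p 0.0639 to 0.16), Lrig1, Prom1, Ephb2, Ephb3, Frzb, Wnt6 and Bmp2 without large 3 (0.0517 to 0.225), Prom1 and Ephb3 without small 2 (0.0991 to 0.116), and Lrig1, Prom1, Ephb2 and Ephb3 without small 3 (0.089 to 0.165). Calls also ended under other settings, for Ephb2 and Ephb3 with no filter on background (adjusted p 0.0547 to 0.0682), Ephb3 with the replicate number as a block (0.0515), and Ephb2 in the 4 wild-type arrays alone (0.0567).

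Tight junction genes, the family to which claudin-7 belongs, had 4 members higher and 4 lower of 28, with a median of -0.20. Of this list 28.6% passed, against 20.2% of all genes. Cldn2, the cation- and water-permeable claudin, read 1.76 and 1.90 in large intestine, against 4.33 and 4.26 in small intestine (-2.46 ± 0.35, adjusted p = 0.00616), and Cldn15, the sodium-permeable one of the small intestine, 1.11 and 1.31 in large intestine, against 2.65 and 2.59 in small intestine (-1.41 ± 0.24, 0.0116). Cldn19 (-4.92 ± 0.81, adjusted p = 0.0101) and Cldn1 (-2.49 ± 0.35, 0.00601) were lower too. Cldn3, a sealing claudin, was higher, at 5.58 and 5.66 in large intestine, against 3.95 and 4.64 in small intestine (1.32 ± 0.28, adjusted p = 0.0221), as were Cldn10 (3.12 ± 0.45, 0.00632), Cldn9 (1.09 ± 0.27, 0.0337) and Jam3 (1.11 ± 0.30, 0.0427). Gasdermin genes had 2 of 8 members lower (25% passed), Gsdmd (-1.35 ± 0.30, adjusted p = 0.0252) and Gsdma3 (-0.90 ± 0.25, 0.0494), and Gsdmc4 read 2.07 and 2.31 in large intestine, against 1.61 and 2.06 in small intestine (0.614). Cldn2, Cldn15, Cldn19, Cldn1, Cldn3, Cldn10, Cldn9, Jam3, Gsdmd and Gsdma3 lost the call without large 2 (limma adjusted p 0.0507 to 0.24), Cldn15, Cldn19, Cldn3, Cldn9, Jam3, Gsdmd and Gsdma3 without large 3 (0.0652 to 0.195), Cldn3, Cldn9, Gsdmd and Gsdma3 without small 2 (0.0715 to 0.169), and Cldn15, Jam3, Gsdmd and Gsdma3 without small 3 (0.0518 to 0.198). Beyond left-out arrays, the call ended for Cldn9, Gsdma3 and Jam3 with no filter on background (adjusted p 0.0526 to 0.0749), Gsdma3 with normexp background correction (0.115), with outlier flags ignored (0.0502), Gsdma3 and Jam3 with the replicate number as a block (0.0591 to 0.0617), Gsdma3 in the 4 wild-type arrays alone (0.0684), in the deposited table (0.0749), and with a trended and robust prior (0.104).

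Of 17 smooth muscle genes 8 were higher and 0 lower, with a median of 1.29, and 0.84 without small 3. Cnn1, calponin, read 6.89 and 7.06 in large intestine, against 5.68 and 4.55 in small intestine (1.86 ± 0.37, adjusted p = 0.0185), and Tagln differed by 1.20 ± 0.26 (0.0247). Acta2 read 6.90 and 7.08 in large intestine, against 6.48 and 5.71 in small intestine, and did not pass (0.0657). The median level of the smooth muscle list was 3.98 and 4.12 in large intestine, against 3.35 and 2.17 in small intestine, so small 3 lay below small 2. Of 18 enteric neuron genes 4 were higher (median 1.34, and 0.79 without small 3), among them Hand2 (1.81 ± 0.44, adjusted p = 0.0329) and Stmn2 (1.61 ± 0.40, 0.0353), and their median level was 1.57 and 1.53 in large intestine, against 0.89 and -0.03 in small intestine. Of 5 genes of interstitial cells of Cajal, the pacemaker cells, 3 were higher, with Ano1, their chloride channel, at 4.18 and 4.15 in large intestine, against 1.87 and 0.88 in small intestine (2.79 ± 0.40, adjusted p = 0.00615). Of 18 fibroblast genes 4 were higher, with Postn, periostin, at 4.53 and 4.62 in large intestine, against 3.02 and 2.68 in small intestine (1.72 ± 0.25, 0.00664). Of 10 enteric glia genes 1 was higher and 1 lower (median 0.76), and of 13 endothelial genes 1 was lower. The share passed was 22.2% for enteric neurons and for fibroblasts, 20% for enteric glia and 7.69% for endothelium, against 20.2% of all genes. It was 47.1% for smooth muscle and 60% for the Cajal list. On the knockout arrays the medians of all these lists but the endothelial one had the other sign. They were -0.48 for smooth muscle, -0.88 for enteric neurons, -0.53 for the Cajal list, -0.53 for fibroblasts and -1.27 for enteric glia. The endothelial median was -0.23 in wild type and -1.19 in knockout. How much the share of muscle and stroma in each fragment contributed to the differences of other genes was not tested. Cnn1, Tagln, Hand2, Stmn2, Ano1 and Postn did not pass without large 2 (limma adjusted p 0.0509 to 0.144), Cnn1, Tagln, Hand2, Stmn2 and Postn without large 3 (0.0568 to 0.159), and Tagln, Hand2 and Stmn2 without small 3 (0.101 to 0.127). Calls that did not hold under other settings were those of Stmn2 with no filter on background (adjusted p 0.0523), and Hand2 and Stmn2 in the 4 wild-type arrays alone (0.0562 to 0.0581).

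Of 20 T and NK cell genes 3 were lower (15%, against 20.2% of all genes passing), with a median of -0.25, and of 16 macrophage genes 3 were lower and 1 higher (25%). Cd4 read 2.24 and 2.75 in large intestine, against 6.20 and 5.97 in small intestine (-3.59 ± 0.28, adjusted p = 0.000737), while Cd3e, a part of the T cell receptor complex, read -0.98 and -0.66 in large intestine, against -0.56 and -0.32 in small intestine, and did not pass (0.311). Csf1r, the macrophage growth factor receptor, read 3.71 and 3.73 in large intestine, against 6.32 and 6.12 in small intestine (-2.50 ± 0.29, adjusted p = 0.00301), whereas the macrophage marker Adgre1 read 0.31 and 0.03 in large intestine, against 0.61 and 0.18 in small intestine (0.519). The cytotoxic granule genes Gzma (-2.90 ± 0.35, adjusted p = 0.00349) and Gzmb (-1.51 ± 0.23, 0.00751) were lower, and Cd14, the endotoxin co-receptor, was higher, at 1.59 and 1.51 in large intestine, against -2.14 and -2.11 in small intestine (3.67 ± 0.21, 0.000235). Of 10 B cell and 9 red cell genes 0 passed in limma, with 3 and 1 at an unadjusted p under 0.05, and of 14 neutrophil genes 2 were lower (14.3%), Mmp9 (-3.40 ± 0.60, adjusted p = 0.0123) and Retnlg (-2.88 ± 0.52, 0.0135). Without large 2, Retnlg did not pass (limma adjusted p 0.0511), and Gzmb, Mmp9 and Retnlg without large 3 (0.0626 to 0.0917).

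Markers of neighbouring organs were read unevenly between arrays. The median level of 22 exocrine pancreas genes was 0.34 and -3.72 in large intestine, against -3.86 and -4.25 in small intestine, so large 2 stood apart. Amy2a5, pancreatic amylase, read 2.30 and -6.28 in large intestine, against -9.21 and -8.73 in small intestine, and did not pass (adjusted p = 0.13). Sycn, the zymogen granule protein syncollin, was high on both large intestine arrays, at 4.29 and 4.79, against -2.59 and -2.45 in small intestine (7.06 ± 0.31, 133-fold higher, adjusted p = 8.64e-05), as was Cela1, an elastase, at 0.82 and 0.89, against -3.78 and -4.04 in small intestine (4.76 ± 0.31, 0.000406). These 2 genes did not follow the array on which the list was high, and they remained called when any 1 wild-type array was left out. They are among the 4 list members that were higher, and 18 did not pass (18.2% passed, against 20.2% of all genes). Liver genes had 1 of 13 members lower (7.69% passed), with a median of -1.53, 9 members below 0 and 4 above. Alb, serum albumin, ran against that median and did not pass (adjusted p = 0.732). It read -4.70 and -4.53 in large intestine, against -6.28 and -5.95 in small intestine. Of 9 skeletal muscle genes 4 were higher (44.4% passed), with Acta1 at 3.08 and 3.21 in large intestine, against 1.78 and 0.63 in small intestine (1.94 ± 0.47, adjusted p = 0.0334). The skeletal muscle median was 1.31 in wild type and -0.19 on the knockout arrays. Of 11 genes of squamous epithelium and urothelium 3 were higher and 0 lower (27.3% passed, against 20.2% of all genes). Their median was 0.55, with 7 members above 0 and 4 below, from -2.41 to 3.70. The highest was Upk1a, a urothelial plaque gene, at 2.12 and 2.06 in large intestine, against -2.13 and -1.09 in small intestine (3.70 ± 0.34, adjusted p = 0.00145). Of 10 imprinted growth genes 4 were lower and 1 higher (50% passed), with Igf2 at -2.17 and -1.85 in large intestine, against 0.53 and 0.45 in small intestine (-2.50 ± 0.44, adjusted p = 0.0121), and Dlk1 at 4.73 and 4.93 in large intestine, against 3.13 and 3.02 in small intestine (1.75 ± 0.43, 0.0351). Acta1, Igf2 and Dlk1 lost the call without large 2 (limma adjusted p 0.0837 to 0.133), the same genes without large 3 (0.0643 to 0.165), Dlk1 without small 2 (0.0853), and Acta1 and Dlk1 without small 3 (0.13 to 0.136). Other settings ended the call of Dlk1 with no filter on background (adjusted p 0.0517), and Acta1 with the replicate number as a block (0.0514).

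The knockout arrays give the same comparison in pups without claudin-7. None of them entered the wild-type difference, but they entered the spread, the background filter and the choice of probe. The calls in knockout and wild type are therefore not independent. There 1677 genes (8.48%) were higher and 1527 (7.72%) lower in large than in small intestine. Of the genes that differed by at least 8-fold in wild type, 279 of the 286 higher and 390 of the 403 lower had the same sign in knockout. Over all genes that passed in wild type, the same sign was seen for 63.4% of the higher and 90.5% of the lower ones, and for 54.5% of the 15794 genes that had not passed. In knockout, 753 of the higher and 802 of the lower genes passed with the same sign, and 26 and 13 passed with the opposite one. Lct differed by -9.03 in knockout and -10.15 in wild type, and Car2 by 6.11 in knockout and 6.22 in wild type. The difference between segments itself differed between genotypes at 28 genes, 0.142% of those tested (limma interaction, adjusted p under 0.05). At an unadjusted p under 0.05 the same interaction test gave 5144 genes. With so few arrays a group, the count of 28 does not show that the segments differed alike in both genotypes at the other genes.

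**Figure D5:**
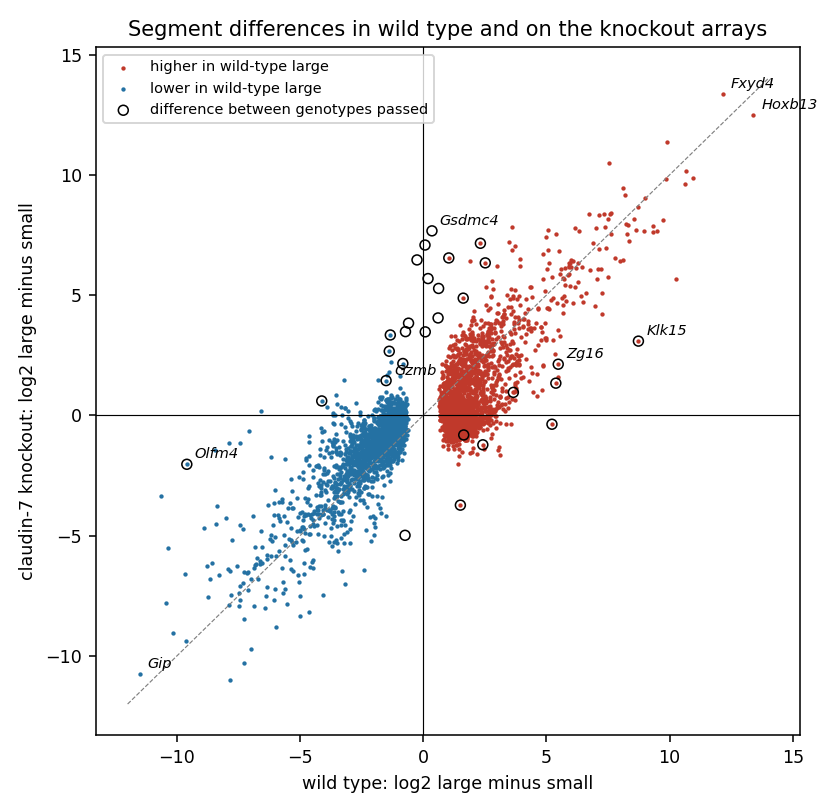
Large minus small intestine on the claudin-7 knockout arrays (y axis) against the same difference in wild type (x axis), both log2, for the 1992 genes higher (red) and 1996 lower (blue) in wild-type large intestine. The dashed line marks equal differences, and black rings mark the 28 genes whose difference between segments differed between genotypes, among them Olfm4. Of the genes that differed by at least 8-fold in wild type, 279 of 286 higher and 390 of 403 lower ones share their sign in knockout, while 63.4% of all red points do.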

How the data were processed

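Intestinal RNA from 8 samples was read on 1-colour Agilent arrays on 1 slide. The deposited scanner files hold each spot's intensity, which was background-subtracted by Feature Extraction 10.7.3.1 with probe positions on mm9, per the file headers; R 3.3.0 is named in the submitters' processing notes. The authors' deposited table of normalized intensity values, with normalization not given in the sources used here, served as an alternative only.

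Outlier-flagged and control spots were dropped, log2 of the deposited processed intensity was taken minus the array's 75th percentile, and spots of a probe were averaged. A probe was kept if both arrays of any of the 4 groups read it well above background, and each gene took its brightest probe (19782 genes). One mean per group was fitted over 8 arrays (4 residual degrees of freedom) with limma 3.58.1 in R 4.3.3, and p-values were Benjamini-Hochberg adjusted over all genes. The fit was also run on simulated data, with the outcome not reported here. Same-numbered arrays deviated together at a correlation of 0.213, and the labels do not say that a number marks a shared pup.

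Named are the 20 largest changes in each direction, up to 6 members of each list with the smallest p, all Hox and region factor genes, and Cldn7. Other genes were chosen after their values were seen. Members and lists were chosen with earlier results of these data known. Alternatives were the background correction, scaling, filters, flags, probe choice, prior, block, arrays in the fit, a fold minimum and each wild-type array left out. Some genes that the rule names are not reported here.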

Additional observations from a re-analysis of the deposited data

Results flagged for a closer look

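The large minus small intestine difference differed between knockout and wild type at 28 genes (limma interaction, adjusted p under 0.05, 0.142% of genes), and the 11 of them named here are given as knockout minus wild-type difference, log2. The count was 1 without large 2, large 3 or small 3, each in turn, and 43 without small 2, so single genes below rest on few arrays.

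Olfm4 had a fitted interaction of 7.56 (adjusted p = 0.00182). This is no exact size, since neither wild-type large intestine reading was well above background. It read -4.64 and -5.05 in knockout small intestine, against 0.18 and 0.47 in wild-type small intestine. Gsdmc (5.49), Gsdmc3 (7.01) and Gsdmc4 (7.32), gasdermin C genes that are close copies and may share probe signal, moved together: Gsdmc4 read -4.06 and -5.43 in knockout small intestine, against 1.61 and 2.06 in wild-type small intestine. Ccl28, an epithelial chemokine (4.84), Ces2a, a carboxylesterase (4.05), and Gstm3, a glutathione transferase (3.45), were likewise low on both knockout small intestine arrays, Ccl28 at -6.37 and -6.34 there, against -1.77 and -1.44 in wild type.

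The granzyme gene Gzmb had an interaction of 2.95. Klk15 had a fitted one of -5.65, again no exact size, since it was not well above background in wild-type small intestine, reading -5.55 and -6.22 in knockout large intestine, against -0.68 and -0.20 in wild-type large intestine. Muc5b had -2.70, reading -5.59 and -5.38 in knockout large intestine, against -1.87 and -1.90 in wild type. Zg16 had -3.35, reading 5.28 and 5.11 in knockout small intestine, against 1.66 and 0.99 in wild-type small intestine.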

How the results depend on the processing

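The counts of 1992 higher and 1996 lower genes stayed within 1.5 times under every alternative that kept all 4 wild-type arrays. They ran between 1438 (no filter on background) and 2415 (the deposited table) for higher genes. For lower genes they ran between 1520 (no filter on background) and 2394 (the 4 wild-type arrays alone). Leaving out a wild-type array gave 470 to 1664 higher, 419 to 1090 lower and 1 to 43 interaction genes, and the cause was not tested. The 28 interaction genes were 15 with no filter and 6 when probes had to be well above background on all 8 arrays. The replicate block, with the number as a fixed term, gave 1890 higher, 1952 lower and 19 interaction genes, of which 1700, 1764 and 13 were shared with the fit without it. Of 238 genes named by the rule that passed, 108 passed under every alternative that tested them and 0 changed sign. Car4, whose 2 kept probes differed in sign, changed sign when their mean replaced the brightest probe (2.22, adjusted p = 0.0147 in limma). Quantile scaling moved the median of all genes by 0.06.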

Other observations

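Gene families outside the lists were grouped by their name's stem after the values were seen. The families named here were taken from those with most members passed, so their high shares were fixed by that choice and are no test. Of 17 kallikrein genes (Klk) 11 were higher in large intestine and 1 lower, against 10.1% of all genes in each direction. Klk1b22 read 1.66 and 1.83 in large intestine, against -4.55 and -4.11 in small intestine (6.08 ± 0.30, adjusted p = 0.000125), and Klk1b21 0.97 and 1.19 in large intestine, against -3.06 and -3.02 in small intestine (4.12 ± 0.20, 0.000118). The Klk1 and Klk1b genes are near-identical, so their probes may read one another. Klk10, which lies outside that group, read -3.68 and -3.76 in large intestine, against -3.85 and -4.21 in small intestine, and did not pass (adjusted p = 0.435).

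Of 8 butyrophilin-like genes (Btnl), some of which shape the T cells between epithelial cells in mouse, 5 were lower and 1 higher. Btnl2 read -3.35 and -3.08 in large intestine, against 4.19 and 3.59 in small intestine (137-fold lower, adjusted p = 0.0014). Btnl1 differed by -4.62 ± 0.84 (adjusted p = 0.0138) and did not pass without large 2 (0.0908) or large 3 (0.0652). Of 10 galectin genes 3 were higher and 4 lower. Lgals2 read -0.62 and 0.02 in large intestine, against 5.88 and 6.11 in small intestine (78.5-fold lower, adjusted p = 0.00329), while Lgals4 read 7.21 and 7.19 in large intestine, against 7.20 and 7.11 in small intestine (0.918). Of 6 interferon-induced Ifit genes 4 were lower and the others did not pass. Ifit1 read 0.24 and -0.44 in large intestine, against 3.47 and 3.57 in small intestine (-3.62 ± 0.87, adjusted p = 0.0321), and it did not pass without any 1 of the 4 wild-type arrays (0.0803 to 0.162).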
